A study of Homo sapiens with 18 samples.

Results

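The transcripts of 10 heat shock protein genes, out of 58051 genes in the count table, were followed in 2 melanoma cell lines. The genes are HSPA1A, HSPA1B, HSPA2, HSPA4, HSPA4L, HSPA8, HSPA9, HSPA12A, HSPA14 and HSPH1, which were taken by name, and all 10 were matched to an Ensembl gene identifier in the table. SKMEL2 and SKMEL30 are established human melanoma lines with a mutant NRAS. Both had been transduced with a lentiviral tet-ON pTRIPZ vector that carries Myc-tagged PPP2R3B, and stable lines had been selected with puromycin. PPP2R3B encodes PR70, a regulatory subunit of protein phosphatase 2A. RNA was sequenced from untreated cells, called uninduced here, and from cells given doxycycline for 6 and for 18 hours, with 3 libraries in each of the 6 groups and 18 libraries in all. Every group, uninduced cells included, carries the vector, and no line without the vector was given doxycycline, so effects of the drug and of PPP2R3B cannot be told apart. The labels give 18 hours for the later time while the text of the study gives a somewhat earlier hour. Nothing states that the 3 libraries of a group came from separate cultures, and p-values measure only the spread between these libraries, which may be technical.

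The HSP70 chaperones bind exposed hydrophobic stretches of unfolded proteins in a cycle driven by ATP. J-domain proteins deliver the substrate and start ATP hydrolysis, and nucleotide exchange factors then release ADP and let the substrate go. HSPA8, also called HSC70, is the constitutive cytosolic form, HSPA1A and HSPA1B are the forms that heat shock factor 1 switches on in stressed cells, and HSPA9, or mortalin, works in the mitochondrial matrix. HSPA2 is best known from male germ cells, and HSPA14 acts at the ribosome with the J-domain protein DNAJC2. HSPH1, HSPA4 and HSPA4L belong to the HSP110 branch, which serves as exchange factor for the other HSP70 proteins, and HSPA12A is a distant relative.

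HSPA1A (chromosome 6, 31815543 to 31817942) and HSPA1B (chromosome 6, 31827738 to 31830254) lie beside each other, and their transcripts were 91.4% identical over the alignment. All coordinates are those of RefSeq on GRCh38.p14. Of the 43-base words of the HSPA1A transcript, 43 bases being the read length, 75.6% also occurred in HSPA1B, and 72.0% of those of HSPA1B occurred in HSPA1A. A read within such a word cannot be assigned to 1 gene by itself, though its mate may lie outside these words. RSEM divides read pairs that fit both genes by estimate, and HSPA1A and HSPA1B are given below both apart and summed. HSPA8 (chromosome 11, 123057489 to 123062462) shared 25.4% of its words with 10 other genes, foremost its pseudogene HSPA8P1, HSPA9 (chromosome 5, 138553756 to 138575401) shared 6.17% with its pseudogene HSPA9P1, and HSPA4L (chromosome 4, 127781796 to 127840733) shared 3.99% with 1275 genes. HSPA2 (chromosome 14, 64535905 to 64543237), HSPA4 (chromosome 5, 133052013 to 133106449), HSPA12A (chromosome 10, 116671192 to 116850747), HSPA14 (chromosome 10, 14838306 to 14871741) and HSPH1 (chromosome 13, 31134973 to 31162388) shared none. HSPA2 overlaps HSPA2-AS1, HSPA12A overlaps HSPA12A-AS1 and HSPA14 overlaps MSANTD7, and whether counting used strand is not given in the sources used here.

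The promoters of 4 genes are shown because they carry the contrast between the stress-inducible pair, the constitutive HSPA8 and HSPA2, the member with the widest difference between the lines. Each runs from 250 bases before to 50 bases after a transcript start in RefSeq (GRCh38.p14), 5′ to 3′ on the strand of the gene. Capitals mark heat shock elements, searched on both strands as exact matches to GAANNTTC or TTCNNGAA, overlapping matches included. Elements that depart from these letters were not searched, so the numbers below count exact matches only.
HSPA1A, chr6:31815293-31815592 (plus strand): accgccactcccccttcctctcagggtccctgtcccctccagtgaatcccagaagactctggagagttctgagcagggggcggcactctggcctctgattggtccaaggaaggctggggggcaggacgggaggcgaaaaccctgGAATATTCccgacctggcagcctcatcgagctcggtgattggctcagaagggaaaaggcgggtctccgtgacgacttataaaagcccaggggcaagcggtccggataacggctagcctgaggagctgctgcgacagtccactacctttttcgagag
HSPA1B, chr6:31827488-31827787 (plus strand): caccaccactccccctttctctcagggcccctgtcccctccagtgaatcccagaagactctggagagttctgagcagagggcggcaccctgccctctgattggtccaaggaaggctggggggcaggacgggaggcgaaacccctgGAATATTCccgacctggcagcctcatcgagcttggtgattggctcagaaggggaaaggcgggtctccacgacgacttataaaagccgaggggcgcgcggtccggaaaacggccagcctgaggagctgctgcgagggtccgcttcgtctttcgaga
HSPA8, chr11:123062087-123062386 (minus strand): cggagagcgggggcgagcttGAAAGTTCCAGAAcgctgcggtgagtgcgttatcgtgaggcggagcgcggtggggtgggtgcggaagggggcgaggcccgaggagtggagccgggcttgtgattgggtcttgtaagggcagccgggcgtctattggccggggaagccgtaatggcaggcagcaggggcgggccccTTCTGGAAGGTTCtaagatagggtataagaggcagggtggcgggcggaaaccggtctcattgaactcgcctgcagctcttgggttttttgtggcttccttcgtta
HSPA2, chr14:64540491-64540790 (plus strand): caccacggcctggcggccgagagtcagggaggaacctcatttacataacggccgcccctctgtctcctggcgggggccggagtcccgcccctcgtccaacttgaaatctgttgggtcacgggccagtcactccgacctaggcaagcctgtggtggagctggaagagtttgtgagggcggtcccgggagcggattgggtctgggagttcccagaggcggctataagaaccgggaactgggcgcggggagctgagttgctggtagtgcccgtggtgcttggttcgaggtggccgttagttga
The HSPA1A and HSPA1B windows were 92.0% identical, and each held 1 element, which starts at position -106 in HSPA1A and -105 in HSPA1B relative to the transcript start. The HSPA8 window held 4 overlapping matches that make up 2 elements of the longer form GAANNTTCNNGAA or TTCNNGAANNTTC, starting at -230 and -55. The HSPA2 window held none. Of 27305 genes with a window, 13.7% held the short form and 0.487% the longer one. Windows were at hand for 9 of the 10 genes. HSPA9 had 1 short match at -4, HSPA4L 1 short match at -170 in 1 of its 3 windows, and HSPH1, HSPA4 and HSPA12A had none.

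Library totals ran from 13402645 to 22383470 counts, and 5.66% to 8.64% of counts came from protein-coding genes of mitochondrial DNA. All 7 melanocytic markers (MITF, PMEL, MLANA, TYR, DCT, SOX10 and S100B) were above 1 CPM in every library. CPM is here a count scaled to the library total after TMM normalisation, also called normalised CPM below. Of 4 leukocyte markers, PTPRC, CD3E and MS4A1 were under 1 CPM in at least 1 library of either line, and the list summed to 33.1 to 55.6 CPM in SKMEL2 and 33.4 to 38.0 in SKMEL30, mostly from CD68. The fibroblast list (COL1A1, COL1A2, DCN, LUM and PDGFRA) summed to at most 33.7 CPM, mostly from LUM. Of the keratinocyte markers KRT1 was at 0 in every library, KRT5 and KRT14 were under 1 CPM in at least 1 library of either line, and the list, with KRT10, summed to 22.2 to 41.6 CPM in SKMEL2 and 17.4 to 83.4 in SKMEL30. The highest sum was in the third 6-hour library of SKMEL30, which stood apart with 37.5 CPM of KRT5 and 26.4 of KRT14. KRT5 was at 0.169, 0.273 and 0.380 in uninduced SKMEL30, 2.96, 0.0502 and 37.5 at 6 hours and 0.218, 0 and 6.49 at 18 hours, and in SKMEL2 it was at 8.27, 5.22 and 3.61, then 0.166, 0 and 4.03, then 5.85, 7.45 and 0. The part of these transcripts in the results was not tested, and the 6-hour values of SKMEL30 are given below with and without the third library. Libraries of 1 group differed by more than sampling noise throughout, most in SKMEL2, where the third uninduced library gave a chi-square per degree of freedom of 18.2 and 20.6 against the other uninduced ones, which gave 4.57 between them. PPP2R3B itself (ENSG00000167393) was at 24.4, 20.5 and 17.2 normalised CPM in uninduced SKMEL2, 343, 418 and 515 after 6 hours and 426, 512 and 484 after 18 hours. In SKMEL30 it was at 22.4, 19.8 and 20.6, then 521, 535 and 566, then 617, 617 and 614. Every induced library thus lay far above every uninduced one, by log2 fold changes of 4.37 to 4.88 across the 4 comparisons (adjusted p from 1.25e-17 to 5.89e-08, edgeR).

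HSPA8 held most of the family's message in both lines before induction. Levels of different genes are compared here as normalised CPM per kilobase of the MANE Select transcript, and values are mean ± SD of 3 libraries. In uninduced SKMEL2, HSPA8 stood at 1530.0 ± 83.8 CPM per kb, HSPA4 at 212 ± 4.91 and HSPA9 at 171 ± 4.98. HSPA2 (72.4 ± 3.93), HSPA1A (68.0 ± 3.91) and HSPA1B (64.7 ± 3.25) followed with overlapping libraries, then HSPH1 (48.4 ± 1.44), HSPA14 (21.4 ± 0.447), HSPA4L (5.20 ± 0.167) and HSPA12A (5.15 ± 0.0466), the last pair again overlapping. The order differed in uninduced SKMEL30. There HSPA8 (1066 ± 36.1) was followed by the mitochondrial HSPA9 (225 ± 5.90), and HSPA1B (120.2 ± 5.08), HSPA1A (112 ± 3.42) and HSPA4 (108 ± 2.14) came next, each overlapping its neighbour. HSPH1 (86.8 ± 2.49), HSPA14 (27.9 ± 1.14), HSPA12A (7.54 ± 0.0887) and HSPA4L (2.07 ± 0.153) were apart from each other, and HSPA2 (0.106 ± 0.0537) was last.

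**Figure D1:**
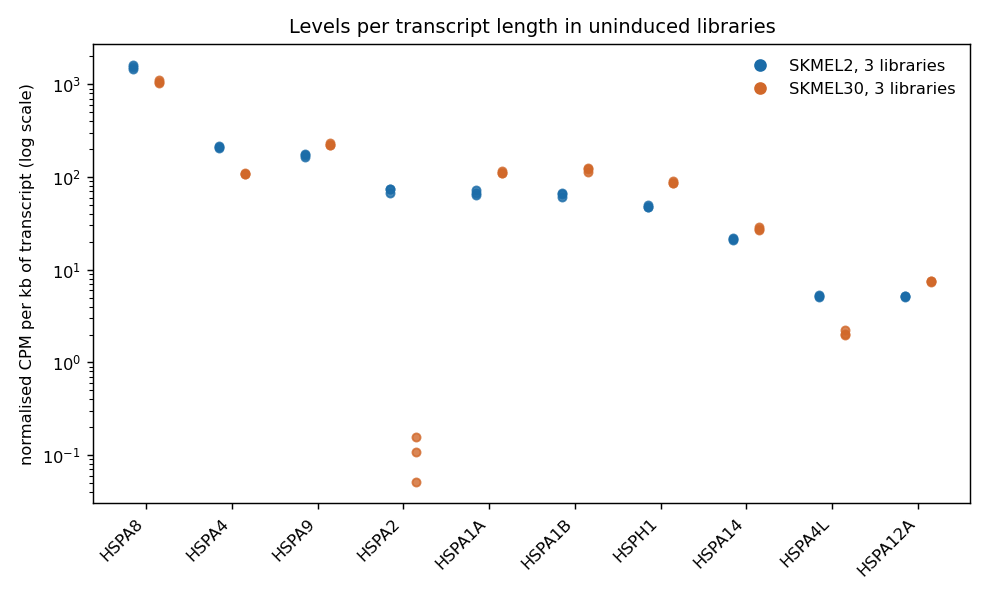
Normalised CPM per kilobase of transcript on a log scale for the 10 genes, ordered by their mean in SKMEL2; each point is 1 of the 3 uninduced libraries of SKMEL2 (blue) or SKMEL30 (orange). HSPA8 is highest in both lines, and HSPA2 is at 72.4 ± 3.93 in SKMEL2 and 0.106 ± 0.0537 in SKMEL30 (mean ± SD).

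Of the summed CPM per kb of the 10 genes, HSPA8 made up 69.6% ± 0.968 (SD, n = 3) in uninduced SKMEL2 and 60.7% ± 0.600 in uninduced SKMEL30. The stress-inducible HSPA1A and HSPA1B made up 3.09% ± 0.0503 and 2.95% ± 0.238 in SKMEL2, and 6.39% ± 0.281 and 6.84% ± 0.231 in SKMEL30. The mitochondrial HSPA9 made up 7.77% ± 0.108 and 12.8% ± 0.0820. HSPA9 has a longer annotated transcript, and with the longest transcript of each gene in place of the MANE Select one its shares were 4.89% and 8.10%, while those of HSPA8 were 72.9% and 63.7%. The share of HSPA2 in uninduced SKMEL2 went from 3.29% to 1.62% in the same way. That is below HSPA1A (3.30%), HSPA1B (3.14%) and HSPH1 (2.35%) by the longest transcripts, so the place of HSPA2 in the order above depends on the transcript chosen. After 18 hours HSPA8 was at 68.1% ± 0.424 in SKMEL2 and 60.5% ± 0.686 in SKMEL30.

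The 2 uninduced lines differed in all 10 genes. The comparison asks how far the chaperone levels of the lines were apart before PPP2R3B was induced, and 76.3% of all genes tested also passed an adjusted p of 0.05 in it (edgeR), 40.2% with the higher level in SKMEL2 and 36.0% with the higher level in SKMEL30, so a difference in most members is what most genes showed. DESeq2 also called all 10, with 73.7% of genes called. HSPA8, HSPA2, HSPA4 and HSPA4L were higher in SKMEL2, and HSPA1A, HSPA1B, HSPA9, HSPA14, HSPH1 and HSPA12A were higher in SKMEL30. Lower RNA per cell and fewer cells that carry a transcript cannot be told apart in these bulk libraries.

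The stress-inducible pair was lower in SKMEL2. HSPA1A was at 154, 162 and 173 normalised CPM in the uninduced SKMEL2 libraries and at 279, 265 and 264 in those of SKMEL30, with no overlap between the lines. This gave a log2 fold change of -0.72 ± 0.057 (SE; adjusted p = 6.09e-10, edgeR quasi-likelihood). HSPA1B was at 164, 170.5 and 154 in SKMEL2 and 312, 288 and 307 in SKMEL30, again without overlap (-0.89 ± 0.058, adjusted p = 2.78e-11, edgeR). Summed, the pair differed by -0.81 ± 0.051 (adjusted p = 1.72e-11, edgeR). HSPH1, an HSP110 form that heat shock also induces, differed in the same direction. It was at 249.7, 249 and 263 in SKMEL2 against 470.1, 448 and 447 in SKMEL30 (-0.84 ± 0.049, adjusted p = 4.89e-12, edgeR).

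The constitutive HSPA8 differed in the other direction. It was at 3290.4, 3435 and 3667 normalised CPM in uninduced SKMEL2 and 2377, 2358 and 2508 in uninduced SKMEL30, a log2 fold change of 0.52 ± 0.052 (adjusted p = 1.72e-08, edgeR). The mitochondrial HSPA9 was lower in SKMEL2, with 728, 756 and 772 against 980.3, 976 and 1023 (-0.40 ± 0.040, adjusted p = 2.26e-08, edgeR). Among the other HSP110 forms, HSPA4 stood at 1030.0, 1018 and 985 in SKMEL2 and 515, 508 and 528 in SKMEL30. It was thus 1.95-fold higher in SKMEL2 (0.97 ± 0.039 on the log2 scale, adjusted p = 1.54e-14, edgeR). HSPA4L stood at 54.9, 53.5 and 57.0 in SKMEL2 and 21.3, 23.8 and 20.8 in SKMEL30, or 2.50-fold higher (1.32 ± 0.15, adjusted p = 1.25e-07, edgeR). None of these genes overlapped between the lines. HSPA14 (-0.39 ± 0.050) and HSPA12A (-0.55 ± 0.056) were lower in SKMEL2.

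HSPA2 was the widest of these differences. Its reads numbered 2910, 3745 and 4242 in the uninduced SKMEL2 libraries and 7, 5 and 2 in those of SKMEL30. The fitted log2 fold change was 9.35 (95% confidence interval 8.97 to 9.73, adjusted p = 2.04e-19, edgeR), or 654-fold. The ratio of the summed counts, scaled by library size, was 673, and its exact interval of 401 to 1231 covers counting error only. The induced SKMEL30 libraries held 7, 4 and 9 HSPA2 counts after 6 hours and 17, 4 and 6 after 18 hours, so the line stayed near the detection limit throughout. These are too few for a test within SKMEL30.

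**Figure D2:**
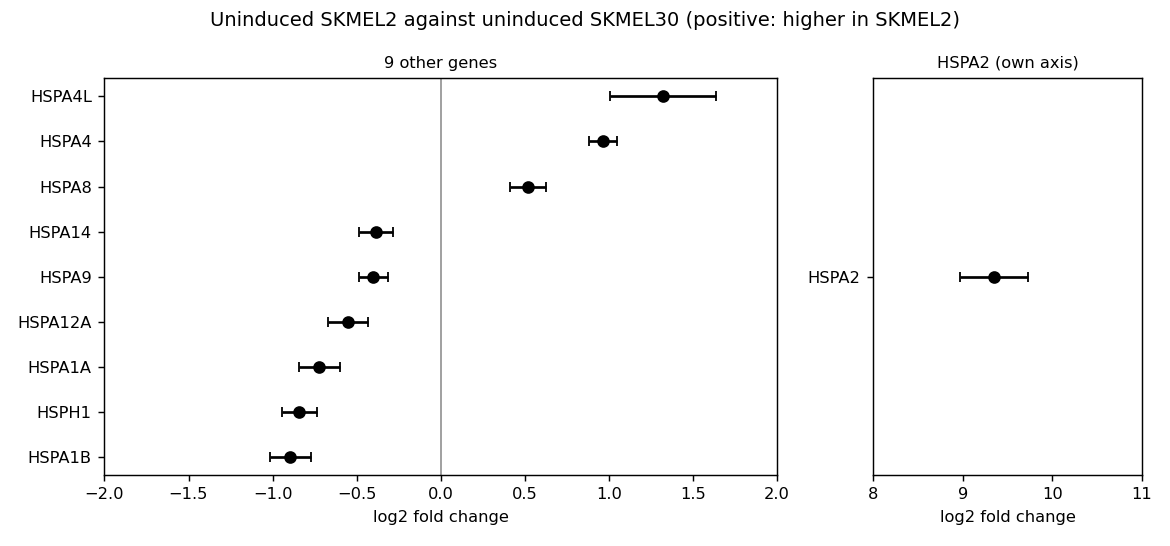
Log2 fold change of the 10 genes between uninduced SKMEL2 and uninduced SKMEL30 (3 libraries each); points are edgeR estimates, bars are 95% confidence intervals, and HSPA2 has its own axis. Of the other 9 genes, HSPA4L, HSPA4 and HSPA8 lie above 0, from 1.32 to 0.52, and 6 lie below 0, down to -0.89 for HSPA1B.

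After induction, no member passed an adjusted p of 0.05 in either line by edgeR. These comparisons ask whether PPP2R3B overexpression moves chaperone transcripts at 6 and at 18 hours. Very few genes of any kind passed, 0.0124% and 0.0124% of those tested in SKMEL2 at 6 and 18 hours and 0.206% and 0.293% in SKMEL30. With single libraries left out, the 31 genes of SKMEL30 at 6 hours became 17 to 40, with 17 without the third 6-hour library, 17 without the first uninduced one and 18 without the third. The 44 at 18 hours became 26 to 30, and the 2 of SKMEL2 at 6 hours became 5 without the third 6-hour library. In SKMEL2 at 18 hours 8 of the 10 members were estimated below the uninduced libraries, beside 8064 of 16120 genes tested, and in SKMEL30 the estimates of both times lay between -0.059 and 0.19 on the log2 scale.

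The lowest estimates in SKMEL2 at 18 hours were those of the stress-inducible pair. HSPA1A was at 154, 162 and 173 normalised CPM in uninduced SKMEL2, 148, 144 and 151 after 6 hours and 131, 137 and 138 after 18 hours. The 3 groups did not overlap each other. At 18 hours the log2 fold change was -0.28 (95% confidence interval -0.40 to -0.15, adjusted p = 0.604, edgeR), lower in 3 of 3 libraries. DESeq2, the tool that the study used, gave the same size of -0.28 and an adjusted p of 0.00583. HSPA1A was thus the 1 member it called, against a background of 0.229% of the 3932 genes, out of 16120, that got an adjusted p. DESeq2 kept that call without the first uninduced library (adjusted p = 0.0165) and lost it without any 1 of the other 5 libraries of the comparison, with adjusted p from 0.259 (without the second uninduced library) to 0.868 (without the first 18-hour library), while its estimates stayed between -0.31 and -0.24. With all 18 libraries in 1 edgeR fit the adjusted p was 0.0759. HSPA1B was at 164, 170.5 and 154 uninduced, 149, 151 and 142 at 6 hours and 134, 136 and 151 at 18 hours. Its uninduced libraries lay above all induced ones, and the 18-hour difference of -0.22 (-0.35 to -0.082) had an adjusted p of 0.851 in edgeR. The pair summed differed by -0.25 (-0.36 to -0.13, adjusted p = 0.604, edgeR), so neither gene nor their sum passed in edgeR. The sum was not run in DESeq2. Whether the DESeq2 call of HSPA1A rests on how RSEM divided the shared reads was therefore not tested.

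HSPA8 in SKMEL2 was at 3290.4, 3435 and 3667 normalised CPM before induction, 3249.8, 3633 and 3185 after 6 hours and 2954, 3094 and 3139 after 18 hours. The 6-hour libraries overlapped the uninduced ones and the 18-hour libraries did not (-0.18, -0.32 to -0.034, adjusted p = 0.960, edgeR). HSPH1 was at 249.7, 249 and 263 uninduced, 241, 253 and 217 at 6 hours and 220.4, 227 and 234 at 18 hours, with the same pattern of overlap (-0.16, -0.29 to -0.035, adjusted p = 0.960, edgeR). The mitochondrial HSPA9 was at 728, 756 and 772 uninduced, 756, 759 and 692 at 6 hours and 706, 711 and 723 at 18 hours. Its 18-hour libraries likewise all lay below the uninduced ones, and its 6-hour libraries overlapped them. The 18-hour estimate of HSPA9 was -0.078, with an interval of -0.19 to 0.036 that includes 0. HSPA4 (-0.013), HSPA2 (0.017), HSPA14 (-0.062) and HSPA12A (-0.071) had 18-hour intervals that also include 0. Of these 4 genes only HSPA12A did not overlap, with its 6-hour and its 18-hour libraries below the uninduced ones. At 6 hours the estimates of these 4 were -0.0060, 0.075, -0.071 and -0.17, those of HSPA8, HSPH1 and HSPA9 were -0.043, -0.10 and -0.029, and those of HSPA1A and HSPA1B were -0.14 and -0.14.

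HSPA4L, an HSP110 exchange factor, was the member with the highest estimate in SKMEL2. Its libraries were at 54.9, 53.5 and 57.0 normalised CPM before induction, 70.1, 74.3 and 40.2 after 6 hours and 69.1, 73.6 and 67.8 after 18 hours. The third 6-hour library stood below every uninduced library while the other 5 induced libraries stood above them. The log2 fold change was 0.16 (-0.18 to 0.51) at 6 hours and 0.34 (0.0019 to 0.69, adjusted p = 0.960, edgeR) at 18 hours. Over all induced libraries it was 0.25 ± 0.14 (adjusted p = 0.934, edgeR), and without the third 6-hour library it was 0.36 ± 0.050 (adjusted p = 0.0401, edgeR), so 1 library decides whether HSPA4L passes. DESeq2 did the same, with an adjusted p of 1.000 with and 2.12e-04 without that library.

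**Figure D3:**
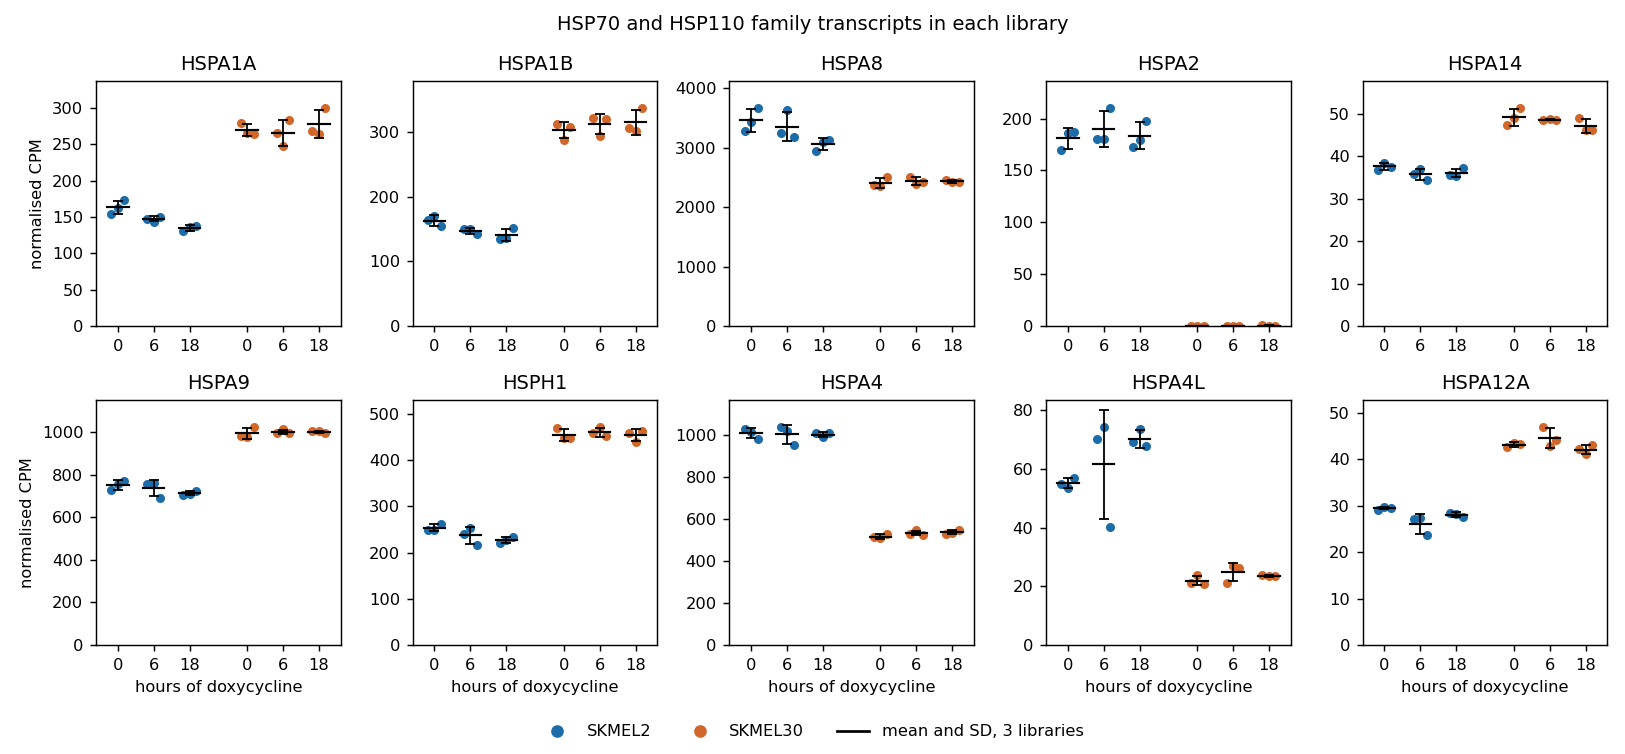
Normalised CPM of each gene against hours of doxycycline; points are single libraries of SKMEL2 (blue) and SKMEL30 (orange), horizontal bars are means and whiskers SD of 3 libraries, and every panel has its own axis from 0. HSPA1A in SKMEL2 runs from 163 ± 9.38 to 135 ± 3.79, and the third 6-hour library of SKMEL2 is the low point of HSPA4L.

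In SKMEL30 the stress-inducible genes had estimates close to 0. HSPA1A was at 279, 265 and 264 normalised CPM before induction, 266, 247 and 283 after 6 hours and 268, 265 and 299 after 18 hours. HSPA1B was at 312, 288 and 307 uninduced, 322, 294 and 319.6 at 6 hours and 305, 302 and 336 at 18 hours. The 3 groups overlapped for both genes. The 18-hour intervals ran from -0.070 to 0.15 for HSPA1A and from -0.045 to 0.16 for HSPA1B. HSPA8 was at 2377, 2358 and 2508 uninduced, 2517, 2392 and 2429 at 6 hours and 2469, 2419 and 2428 at 18 hours, again overlapping. Its 18-hour estimate was 0.014 (-0.046 to 0.074). HSPA9 (0.011 at 6 hours and 0.011 at 18 hours) and HSPH1 (0.016 and -0.0041) were as near to 0. HSPA4 was at 515, 508 and 528 uninduced, 530.5, 546 and 527 at 6 hours and 529.9, 533 and 548 at 18 hours, and its 18-hour libraries were the only ones of a member in SKMEL30 that did not overlap the uninduced ones (0.055, -0.00067 to 0.11, adjusted p = 0.552, edgeR). HSPA4L was estimated at 0.19 and 0.10, HSPA12A at 0.044 and -0.037, and HSPA14 at -0.017 and -0.059. Without the third 6-hour library the 6-hour estimates were 0.14 for HSPA4L, 0.056 for HSPA4, -0.075 for HSPA1A, 0.020 for HSPA1B, 0.021 for HSPA8, 0.013 for HSPA9, 0.048 for HSPA12A, -0.019 for HSPA14 and 0.027 for HSPH1. With and without it, no member passed.

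**Figure D4:**
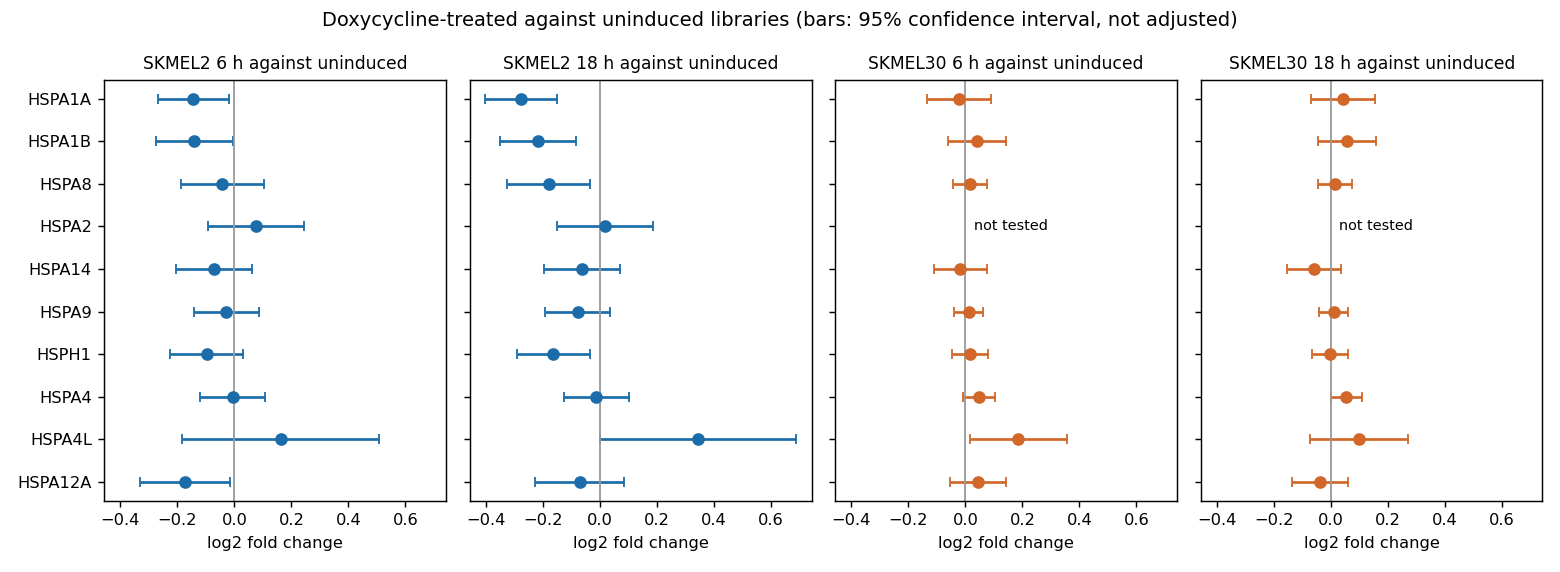
Log2 fold change of each gene after 6 and 18 hours of doxycycline against uninduced libraries of the same line (3 libraries each); points are edgeR estimates and bars unadjusted 95% confidence intervals. HSPA2 was too low for a test in SKMEL30. In SKMEL2 at 18 hours HSPA1A (-0.28) and HSPA1B (-0.22) lie farthest below 0, and in SKMEL30 every interval but that of HSPA4L at 6 hours includes 0.

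Counted over the members, 3 of 10 had an unadjusted p under 0.05 in SKMEL2 at 6 hours (HSPA1A, HSPA1B and HSPA12A, all estimated lower), where 3.52% of all genes did. At 18 hours there were 5 (HSPA1A, HSPA1B, HSPA8 and HSPH1 lower and HSPA4L higher) against 4.84% of all genes. In SKMEL30 there was 1 of 9 at 6 hours (HSPA4L, higher) and 0 of 9 at 18 hours, against 6.60% and 9.24%. The libraries of the 2 groups did not overlap for 3 of 10 members in SKMEL2 at 6 hours and 7 of 10 at 18 hours, 6 of them lower, while 6.80% and 14.3% of all genes showed no overlap. In SKMEL30 these were 0 and 1 of 9 members, against 11.3% and 16.0%. The members were measured in the same 6 libraries and are not independent of each other. They were also chosen with earlier results of these data known. The median log2 fold change of the members was -0.057 at 6 and -0.075 at 18 hours in SKMEL2, and 0.018 and 0.014 in SKMEL30, beside 0.0031, -0.00011, 0.00059 and 0.00087 over all genes tested. DESeq2 called no member at 6 hours in SKMEL2 or at either time in SKMEL30. There it called 0.0496%, 0.213% and 1.60% of the 16119, 15025 and 4247 genes for which it gave an adjusted p. A gene without an adjusted p could not be called.

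The responses of the 2 lines were also compared with each other, since the stress-inducible genes were estimated lower in SKMEL2 and near 0 in SKMEL30. No member passed the test of that difference by edgeR (0.00584% of genes called at 6 and 0.00584% at 18 hours) or by DESeq2 (0% and 0.0175%). For HSPA1A the 18-hour response of SKMEL2 minus that of SKMEL30 was -0.32 (-0.49 to -0.15, adjusted p = 0.914, edgeR), and for HSPA1B it was -0.27 (-0.44 to -0.10, adjusted p = 0.914, edgeR). HSPA8 (-0.19, -0.34 to -0.040) and HSPH1 (-0.16, -0.30 to -0.013) were next, and HSPA9 (-0.087), HSPA4 (-0.066), HSPA12A (-0.033), HSPA14 (-0.0018), HSPA4L (0.25) and HSPA2 (-0.92) had intervals that include 0. The HSPA2 value rests on the few reads of SKMEL30. At 6 hours the differences ran from -0.37 for HSPA2 and -0.22 for HSPA12A to -0.021 for HSPA4L, with HSPA1B (-0.19), HSPA1A (-0.13), HSPH1 (-0.12), HSPA8 (-0.064), HSPA14 (-0.058), HSPA4 (-0.057) and HSPA9 (-0.044) between them. Unadjusted, 2 of 10 members at 6 hours and 4 at 18 hours had p under 0.05, with 4.63% and 5.04% of all genes.

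No member passed between the 2 times of induction. By edgeR 0% of genes in SKMEL2 and 0.0200% in SKMEL30 passed between 18 and 6 hours, and by DESeq2 0.0310% and 0.0666%. Unadjusted, 1 of 10 members in SKMEL2 (HSPA1A, -0.13) and 0 of 9 in SKMEL30 had p under 0.05, with 2.64% and 5.62% of all genes. The other estimates between the times in SKMEL2 were those of HSPA8 (-0.14), HSPA1B (-0.076), HSPH1 (-0.067), HSPA2 (-0.058), HSPA9 (-0.049), HSPA4 (-0.0072), HSPA14 (0.0089), HSPA12A (0.10) and HSPA4L (0.18). In SKMEL30 they were those of HSPA4L (-0.087), HSPA12A (-0.080), HSPA14 (-0.042), HSPH1 (-0.020), HSPA8 (-0.0038), HSPA9 (-0.00071), HSPA4 (0.0074), HSPA1B (0.014) and HSPA1A (0.064). With the 6- and 18-hour libraries joined against the same uninduced ones, HSPA1A was at -0.21 (-0.32 to -0.10, adjusted p = 0.786, edgeR) and HSPA1B at -0.18 (adjusted p = 0.934, edgeR) in SKMEL2, and at 0.010 and 0.049 in SKMEL30. The joined estimates of SKMEL2 were also HSPH1 (-0.13), HSPA12A (-0.12), HSPA8 (-0.11), HSPA14 (-0.067), HSPA9 (-0.053), HSPA4 (-0.0096) and HSPA2 (0.046), beside that of HSPA4L above. In SKMEL30 they were HSPA14 (-0.038), HSPA12A (0.0035), HSPH1 (0.0060), HSPA9 (0.011), HSPA8 (0.016), HSPA4 (0.051) and HSPA4L (0.14). No member passed in these joined comparisons, where 0.0186% and 0.280% of genes passed by edgeR. By DESeq2 0.0633% and 0.594% passed, of the 15806 and 10947 genes that got an adjusted p. Unadjusted, 3 of 10 members in SKMEL2 (HSPA1A, HSPA1B and HSPH1) and 1 of 9 in SKMEL30 (HSPA4) had p under 0.05, with 4.53% and 8.70% of all genes. The joined comparisons use the same uninduced libraries as those of each time in their line, and the comparisons between the times use the same induced ones.

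The balance of inducible to constitutive message can be read within each library, free of the scaling between libraries. It is given as HSPA1A plus HSPA1B counts per 100 counts of HSPA8 or HSPA9, with no test. In SKMEL2 there were 9.66, 9.69 and 8.92 per 100 HSPA8 counts in uninduced libraries, 9.15, 8.11 and 9.19 after 6 hours and 8.96, 8.81 and 9.20 after 18 hours, and the groups overlapped. In SKMEL30 there were 24.9, 23.5 and 22.8 uninduced, 23.3, 22.6 and 24.8 at 6 hours and 23.2, 23.4 and 26.2 at 18 hours. Every SKMEL30 library lay above every SKMEL2 library, while the groups of 1 line overlapped. Against the mitochondrial HSPA9 the uninduced SKMEL2 libraries had 43.7, 44.0 and 42.4 counts per 100, the 6-hour libraries 39.3, 38.8 and 42.3 and the 18-hour libraries 37.5, 38.3 and 40.0. Here both induced groups lay below the uninduced one, with differences in mean log2 ratio of -0.11 and -0.17 and pooled SDs of 0.051 and 0.039. The corresponding differences against HSPA8 were -0.10 and -0.067, with SDs of 0.087 and 0.053. In SKMEL30 the counts per 100 HSPA9 were 60.3, 56.7 and 55.9 uninduced, 58.9, 53.4 and 60.6 at 6 hours and 57.2, 56.3 and 63.9 at 18 hours, all overlapping.

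**Figure D5:**
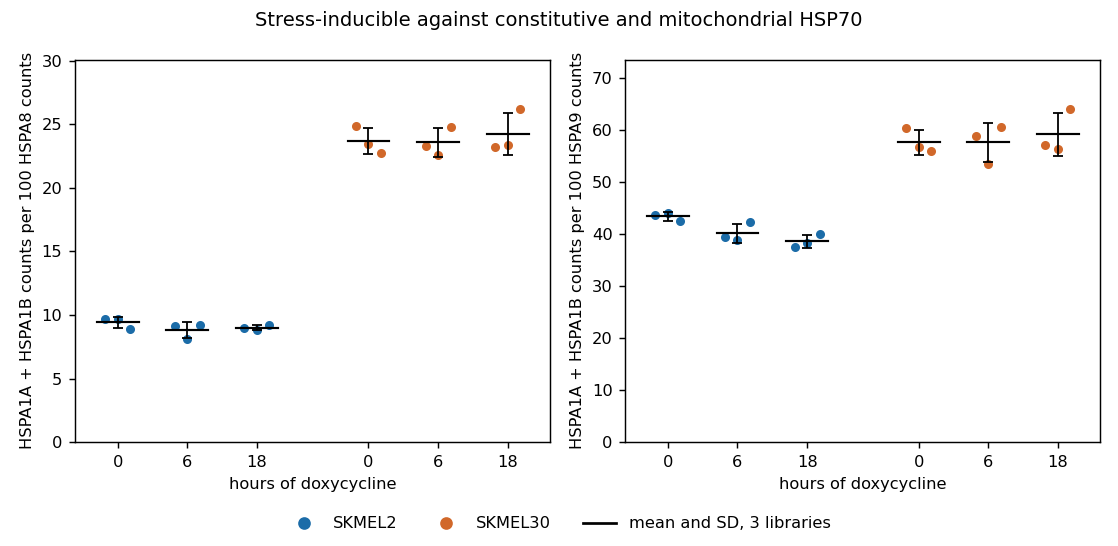
Counts of HSPA1A plus HSPA1B per 100 counts of HSPA8 (left) and of HSPA9 (right) against hours of doxycycline; points are single libraries, horizontal bars means and whiskers SD of 3 libraries, axes from 0. SKMEL2 libraries lie between 8.11 and 9.69 and SKMEL30 libraries between 22.6 and 26.2 per 100 HSPA8 counts.

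HSPA1A made up 50.1% ± 2.44 (SD, n = 3) of the counts of the pair in uninduced SKMEL2 and 47.1% ± 0.847 in uninduced SKMEL30. The third uninduced library of SKMEL2, which had the largest share of mitochondrially encoded counts, stood apart in this split at 52.9%. Over the 9 libraries of a line, log2 CPM of HSPA1A and HSPA1B correlated at 0.71 in SKMEL2 and 0.80 in SKMEL30, which is a description, since the genes share reads and libraries. Over the 36 pairs of members other than HSPA2, the median r was 0.55 in SKMEL2 and 0.031 in SKMEL30. HSPA1A correlated with HSPA8 at 0.76 and with HSPH1 at 0.71 in SKMEL2, but at -0.015 and 0.050 in SKMEL30. No such r was taken over pairs of other genes, so the values are not shown to be particular to the members. Libraries of a group also varied more in SKMEL2, with a common coefficient of variation of 8.36% against 4.11% in SKMEL30 (edgeR). The part of this spread in the correlations was not tested.

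Among 14079 genes tested in both lines, those whose pattern was most like HSPA1A plus HSPA1B were picked by the smaller of the correlations in the 2 lines (Pearson r of log2 CPM over 9 libraries each). They were RASSF4 (0.89 in SKMEL2 and 0.76 in SKMEL30), STYXL1 (0.76 in SKMEL2 and 0.74 in SKMEL30), MANF (0.79 in SKMEL2 and 0.72 in SKMEL30), FKBP4 (0.68 in SKMEL2 and 0.79 in SKMEL30) and HSPA5 (0.80 and 0.67). HSPA5, also known as BiP, is a chaperone of the endoplasmic reticulum, MANF is a protein of the same compartment, and FKBP4 is a partner of HSP90. Those most like HSPA8 were KARS1 (0.89 in SKMEL2 and 0.88 in SKMEL30), CDC7 (0.88 in SKMEL2 and 0.87 in SKMEL30), RPL36AL (0.87 in SKMEL2 and 0.89 in SKMEL30), TRMO (0.84 in SKMEL2 and 0.92 in SKMEL30) and MFAP1 (0.87 and 0.81). KARS1 is the lysyl-tRNA synthetase and CDC7 a kinase of replication origins. The r values are the highest of many and describe these libraries.

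Of 38 genes that work with HSP70, listed by role, no gene passed in any induction comparison by edgeR or DESeq2 with all libraries of a line, and 32 differed between the uninduced lines, 16 higher in SKMEL2 and 16 lower. Over all genes tested that comparison called 76.3%, with 40.2% higher and 36.0% lower in SKMEL2, and the counts of each list are to be read against these shares. At an unadjusted p under 0.05 there were 0 of 38 in SKMEL2 at 6 hours, 3 at 18 hours (all lower), and 6 and 6 in SKMEL30, where 3.52%, 4.84%, 6.60% and 9.24% of all genes had one. Among 16 J-domain proteins, 7 were higher in uninduced SKMEL2 and 6 lower. DNAJA4 (2.56 ± 0.095, log2 fold change ± SE), DNAJC2 (1.41 ± 0.11), DNAJB6 (1.26 ± 0.052) and DNAJA1 (1.10 ± 0.052) were higher there. HSCB, which serves HSPA9 in building iron-sulfur clusters, was lower (-1.88 ± 0.14), as was the mitochondrial DNAJC15 (-0.92 ± 0.064). DNAJB1, the heat-inducible partner of HSPA1A, was lower by a smaller margin (-0.23 ± 0.040). The others called were DNAJB5 (0.57 ± 0.15), DNAJC7 (0.38 ± 0.047) and DNAJA2 (0.29 ± 0.058), which were higher, and DNAJC5 (-0.34 ± 0.060), DNAJC8 (-0.31 ± 0.068) and DNAJB2 (-0.21 ± 0.069), which were lower. After induction the 2 J-domain genes with the smallest p were DNAJA4 (0.15) and DNAJC2 (-0.16) in SKMEL2 at 18 hours and DNAJA2 (0.094) and DNAJC2 (0.25) in SKMEL30. At 6 hours they were DNAJC5 (0.13) and DNAJA1 (-0.078) in SKMEL2, and DNAJA4 (0.29) and HSCB (0.19) in SKMEL30. Between the times they were HSCB (0.35) and DNAJC15 (-0.13) in SKMEL2 and HSCB (-0.17) and DNAJC15 (-0.10) in SKMEL30, over all induced libraries DNAJC5 (0.13) and DNAJC2 (-0.12) in SKMEL2 and DNAJA4 (0.26) and DNAJC2 (0.25) in SKMEL30, and for the difference between lines DNAJA1 (-0.16) and DNAJC2 (-0.34) at 6 hours and DNAJC2 (-0.40) and DNAJA1 (-0.16) at 18 hours.

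Among 11 exchange factors and adaptors, 4 were higher and 5 lower in uninduced SKMEL2. ST13, which steadies the substrate-bound state of HSP70, was higher (1.12 ± 0.056). BAG2 (-1.44 ± 0.091) and STIP1, the HOP adaptor that passes substrates from HSP70 to HSP90 (-0.92 ± 0.063), were lower. GRPEL1 and GRPEL2, exchange factors of HSPA9, went opposite ways (-0.21 ± 0.059 and 0.59 ± 0.076). Also higher in SKMEL2 were STUB1 (0.30 ± 0.090) and HSPBP1 (0.23 ± 0.10), and BAG1 (-0.34 ± 0.082) and BAG3 (-0.22 ± 0.064) were lower. After 18 hours the genes of this list with the smallest p were STIP1 (-0.22, adjusted p = 0.960, edgeR) and BAG1 (0.19) in SKMEL2, and BAG1 (0.15, adjusted p = 0.311, edgeR) and BAG2 (0.095) in SKMEL30. At 6 hours they were BAG4 (-0.13) and STUB1 (0.14) in SKMEL2, and BAG1 (0.082) and GRPEL1 (0.067) in SKMEL30. Between the times they were STIP1 (-0.20) and BAG5 (0.090) in SKMEL2 and BAG1 (0.067) and BAG2 (0.043) in SKMEL30, over all induced libraries BAG4 (-0.12) and STIP1 (-0.11) in SKMEL2 and BAG1 (0.12) and BAG2 (0.073) in SKMEL30, and for the difference between lines GRPEL1 (-0.13) and HSPBP1 (0.17) at 6 hours and STIP1 (-0.21) and ST13 (-0.14) at 18 hours.

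Among 11 heat shock factors and other targets of theirs, 5 were higher and 5 lower in uninduced SKMEL2. CHORDC1 (1.57 ± 0.079), AHSA1, an activator of HSP90 (1.16 ± 0.041), and HSP90AA1, the inducible HSP90 (0.86 ± 0.044), were higher in SKMEL2, against the direction of HSPA1A, HSPA1B and HSPH1. The small heat shock protein CRYAB (-1.19 ± 0.10) and the mitochondrial chaperonin genes HSPD1 (-0.39 ± 0.042) and HSPE1 (-0.32 ± 0.053) were lower, the direction of HSPA9. HSF1 was at -0.22 ± 0.078 and HSF2 at 0.76 ± 0.078. FKBP4 (0.31 ± 0.043) was higher and the constitutive HSP90AB1 (-0.18 ± 0.037) lower in SKMEL2. In SKMEL2 at 6 hours 6 of the 11 were estimated below 0, with a median of -0.018, beside 7902 of 16120 genes tested. At 18 hours all 11 were estimated below 0, where 8064 of 16120 genes tested were and the median of all genes was -0.00011. The 11 were measured in the same libraries, are not independent, and were chosen with earlier results of these data known. They had a median of -0.10 and 2 at an unadjusted p under 0.05 (all genes 4.84%), CRYAB (-0.40 ± 0.14, adjusted p = 0.960, edgeR) and HSP90AA1 (-0.16 ± 0.056, adjusted p = 0.960, edgeR). In SKMEL30 at 18 hours 5 of the 11 were below 0, beside 7451 of 15026 genes tested, with HSP90AA1 at 0.092 ± 0.031 and CRYAB at -0.10 ± 0.055. At 6 hours the genes with the smallest p were CHORDC1 (-0.12) and HSP90AA1 (-0.051) in SKMEL2, and HSF1 (-0.14) and HSP90AA1 (0.077) in SKMEL30. Between the times they were CRYAB (-0.35) and HSP90AA1 (-0.11) in SKMEL2 and CHORDC1 (-0.062) and FKBP4 (0.040) in SKMEL30, over all induced libraries HSP90AA1 (-0.10) and CHORDC1 (-0.15) in SKMEL2 and HSP90AA1 (0.085) and HSF1 (-0.12) in SKMEL30, and for the difference between lines HSP90AA1 (-0.13) and CHORDC1 (-0.20) at 6 hours and HSP90AA1 (-0.25) and AHSA1 (-0.14) at 18 hours.

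The other HSP70 genes are given by their levels and by the tests of those that were high enough. HSPA5, the form of the endoplasmic reticulum, was at 753 ± 7.11 normalised CPM (mean ± SD, n = 3) in uninduced SKMEL2 and 812 ± 27.7 in uninduced SKMEL30, and HSPA13 was at 77.2 ± 6.82 and 96.2 ± 3.62. HYOU1, an HSP110 relative in the same compartment as HSPA5, was at 198 ± 12.2 and 189 ± 2.42. HSPA6, the form that is strictly stress-inducible, was low in both lines, at 13.1 ± 1.75 and 3.38 ± 0.488, and it did not follow HSPA1A and HSPA1B between the lines, being higher in SKMEL2 (1.94 ± 0.16, log2 fold change ± SE, adjusted p = 1.62e-09, edgeR). After induction HSPA6 was at 12.7 ± 1.38 in SKMEL2 and 3.20 ± 0.565 in SKMEL30 at 18 hours. HSPA1L, next to HSPA1A in the genome, was at 2.26 ± 0.0906 and 2.35 ± 0.0628, HSPA7, a close copy of HSPA6, at 1.76 ± 0.0629 and 0.149 ± 0.142, and HSPA12B at 0.157 ± 0.103 and 0.289 ± 0.109. After induction none of these genes passed. HSPA5 was estimated at -0.12 in SKMEL2 at 6 hours (unadjusted p = 0.0334, adjusted p = 0.989, edgeR) and -0.11 at 18 hours (unadjusted p = 0.0475, adjusted p = 0.960, edgeR). In SKMEL30 it was at 0.073 at 18 hours (unadjusted p = 0.0449, adjusted p = 0.530, edgeR), and the 18-hour difference between lines was -0.18 (unadjusted p = 0.00701, adjusted p = 0.914, edgeR). HSPA7 was estimated at 0.51 in SKMEL2 at 18 hours (unadjusted p = 0.0470, adjusted p = 0.960, edgeR).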

How the data were processed

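The deposited table holds expected counts per Ensembl gene, which the authors estimated with RSEM from 43-base paired reads of KAPA mRNA HyperPrep libraries aligned with STAR to an Ensembl transcriptome on GRCh38. The submitters' processing notes name Trimmomatic 0.36, cutadapt 1.5, STAR 2.2.2a, SAMtools 1.8 and RSEM 1.3.0, and the study's methods give other versions of some tools. RSEM divides reads that fit several genes, and 12.3% of values are not whole, so counts were rounded. All 18 columns were matched to samples by name. Symbols were found for 55604 of 58051 identifiers (95.8%).

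Genes were kept by filterByExpr, scaled by TMM and tested with edgeR 4.0.16 (glmQLFit and glmQLFTest, R 4.3.3) on group means, over the 9 libraries of a line or, between lines, all 18. P-values were adjusted by Benjamini-Hochberg over all genes tested, and 0.05 was the threshold. Normalised CPM uses TMM over 18 libraries. DESeq2 1.42.0, other scaling and filters, a replicate block, the summed HSPA1 pair and leaving out each library were alternatives, and a gene without an adjusted p in DESeq2 was left without one. Lengths and 43-base words came from GENCODE transcripts of another build, matched by identifier with no coordinates used, promoters from RefSeq (GRCh38.p14). No 2 libraries of a group agreed within sampling noise. The scripts were tested on simulated counts. The 10 genes, all of which are named in every comparison, and the lists of partner genes were chosen with earlier results of these data known; partner genes are named where they passed or, failing that, as the 2 of a list with the smallest p.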

Additional observations from a re-analysis of the deposited data

How the results depend on the processing

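Between the uninduced lines, each of the 130 values that the alternatives gave for single members kept its direction and its side of the threshold (edgeR or DESeq2). After induction and for the difference between lines, 1110 of 1159 did. DESeq2 called 1 member in SKMEL2 at 18 hours in place of 0, HSPA1A, whose adjusted p ran from 0.00583 (DESeq2) through 0.0759 (edgeR on all 18 libraries) to 1.000 (edgeR without the third uninduced library). Why the tools differ was not tested. With single libraries left out, by edgeR and, as an alternative chosen after seeing the data, by DESeq2, the members called in SKMEL2 ran from 0 to 1 at 6 hours (HSPA4L), at 18 hours (HSPA1A) and over all induced libraries (HSPA4L). Changes of sign were of estimates that did not pass the test. Summing the pair gave 0.012 for SKMEL30 at 6 hours where HSPA1A alone was negative, and the 18-hour difference between lines in HSPA14 became 0.0020 (DESeq2), 0.0034 (RLE scaling) and 0.0023 (only the libraries compared). With single libraries left out, the edgeR log2 fold changes that crossed 0 ran as follows: in SKMEL2 at 6 hours HSPA2 -0.012 to 0.12, HSPA4 -0.027 to 0.021 and HSPA9 -0.047 to 0.0045, and at 18 hours HSPA2 -0.037 to 0.056 and HSPA4 -0.035 to 0.0048. In SKMEL30 they ran at 6 hours HSPA1A -0.075 to 0.031, HSPA8 -0.0045 to 0.046, HSPA9 -0.0017 to 0.034 and HSPA14 -0.045 to 0.014, at 18 hours HSPA1A -0.016 to 0.075, HSPA8 -0.0025 to 0.044, HSPA9 -0.0014 to 0.034 and HSPH1 -0.018 to 0.021, and over all induced libraries HSPA1A -0.018 to 0.037. For the difference between lines they ran at 6 hours HSPA4L -0.17 to 0.20 and at 18 hours HSPA14 -0.029 to 0.030. DESeq2 without single libraries changed the sign in SKMEL2 at 6 hours of HSPA2 -0.011, HSPA4 0.012 and 0.021, HSPA9 0.0050, and at 18 hours of HSPA2 -0.023 and -0.039, HSPA4 0.0050. The cause of these changes of sign was not tested.

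Same-numbered libraries did not all correlate above 0.1 in their deviations (3 of 9 pairs in SKMEL2 and 2 of 9 in SKMEL30 did; r from -0.16 to 0.24 for SKMEL2 pairs of numbers, and between -0.030 and 0.11 for those of SKMEL30; 5 and 8 of 9 libraries correlated best with their own number, a hint of pairing from the data alone), so the numbers were not taken as pairs. With the replicate block, 0 members were called after induction and 10 between the lines, and HSPA1A in SKMEL2 at 18 hours had an adjusted p of 0.298 (edgeR). The number of all genes called was less stable. With the block it was 3 and 7 in SKMEL2 at 6 and 18 hours in place of 2 and 2, 23 in place of 3 between 18 and 6 hours in SKMEL30, 6 in place of 3 over all induced SKMEL2 libraries, and 7 in place of 1 for the 6-hour difference between lines. DESeq2 called 8, 9, 10, 5 genes in SKMEL2 (6 h, 18 h, all induced, 18 against 6 h) and 68, 65 and 10 in SKMEL30 (18 h in place of 44, all induced in place of 42, 18 against 6 h). One fit of all 18 libraries called 6, 7 and 17 in SKMEL2 and 7, 9 and 10 in SKMEL30 (6 h, 18 h, all induced), and 0 between the times in SKMEL30. With no filter on low counts there were 5 and 72 at 18 hours, 5 and 64 over all induced libraries and 17 between the times in SKMEL30, where RLE scaling and the stricter filter each gave 5. Only the libraries compared gave 7 in SKMEL2 at 18 hours and 0 between the times in SKMEL30. DESeq2 called 3 in place of 1 for the 18-hour difference between lines, and for the 6-hour one 0 in place of 1, as did the older quasi-likelihood method, the stricter filter and only the libraries compared. With single libraries left out, the counts ran 2 to 5, 2 to 2 and 2 to 7 in SKMEL2 (6 h, 18 h, all induced; at 6 h and all induced highest without the third 6-hour library), 17 to 40, 26 to 30 and 23 to 52 in SKMEL30 (all induced lowest without the first uninduced library), 0 to 1 and 0 to 4 between the times, and 0 to 1 and 1 to 2 for the difference between lines. A filter of at least 10 counts in every library left HSPA2 out of the comparisons between lines. Depth limits HSPA2 in SKMEL30, where no library held more than 17 of its reads.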
